A study of Mus musculus with 4 samples.

Results

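The 8 genes described here encode the enzymes that make serine and pass its carbon on to folate: *Phgdh*, *Psat1*, *Psph*, *Shmt1*, *Shmt2*, *Mthfd1*, *Mthfd1l* and *Mthfd2*. They were chosen by gene name, with earlier results of these data known, and every probe on the arrays that carried one of these names was used. This gave 15 of 56605 probes and 8 of 32562 named genes. Each gene had between 1 and 3 probes, and where 1 value per gene is given it is that of the brightest probe, by its mean signal.

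Their transcripts were read on 4 single-colour Agilent arrays of mouse CD4+ T cells. A single array was hybridized for each genotype, WT or Nr4a-TKO, at each stage, naive T or iTreg at 3 h. Nr4a-TKO cells lack the nuclear receptors Nr4a1, Nr4a2 and Nr4a3, which are induced by T cell receptor signaling, and were made by combining floxed Nr4a1 and Nr4a2 alleles with Nr4a3-/- on C57BL/6J. The driver of the Cre recombinase is not given in the sources used here. All naive cells were sorted as CD4+ CD62Lhi CD44low Foxp3- from irradiated Rag2-/- hosts, which have no T or B cells of their own, 6 weeks after bone marrow transfer. Hosts of the Nr4a-TKO cells (Ly5.2+) had received marrow of both genotypes (WT marrow was Ly5.1), whereas hosts of the WT cells had received WT marrow alone, so host and genotype cannot be told apart. The sources name the Nr4a-TKO marrow as carrying a *Foxp3* knock-in (hCD2-hCD52), and the marrow of the WT hosts only as wild type. The mice of the colony were 6 to 8 weeks old, and how many were pooled for an array is not given. Naive T cells were not cultured. The iTreg cells, which are naive cells being turned into induced regulatory T cells, had been cultured for 3 h on anti-CD3 (2 µg/ml) with anti-CD28 (0.5 µg/ml), IL-2 (10 ng/ml), TGF-β1 (at a dose of 0.2 or of 0.5 ng/ml, without a statement of which for the arrays) and antibodies that block IFN-γ and IL-4. The comparison over time asks how the enzyme genes responded in the first hours of this culture, and the comparison between genotypes asks whether loss of Nr4a factors changed that response.

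Serine is made from the glycolytic intermediate 3-phosphoglycerate in a short pathway that Phgdh opens, Psat1 continues and Psph closes. Serine hydroxymethyltransferases then move a carbon from serine to tetrahydrofolate, leaving glycine. Shmt1 does this in the cytosol and Shmt2 in mitochondria, and the one-carbon units are interconverted by Mthfd1 in the cytosol and by Mthfd2 and Mthfd1l in mitochondria, from where they leave as formate. The carbon is used for purines, thymidylate and methionine, and the mitochondrial arm is known to be built up strongly when T cells are activated.

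No group had a replicate, so each difference is a value without a test, set beside the precision of the arrays and beside the same quantity over all genes. Probes printed on at least 5 spots of an array put the spot SD at 0.17 for a difference of log2 signals and at 0.24 for a difference between changes. For probes under a log2 signal of 6 the SD of a log2 difference was between 0.23 and 0.26. This spread covers the arrays and not the mice. A fixed amount of RNA (100 ng) was labelled from each sample, so a log2 signal is relative to total RNA, and fewer cells of a type and less RNA per cell cannot be told apart. Of the T cell markers used (*Cd3e*, *Cd3g*, *Cd4*, *Lck*, and *Ptprc*, which other leukocytes also carry), 5 of 5 were well above background on every array. The probes of the targeted genes were a poor check of the labels. *Nr4a1* had log2 signals of 7.05 for WT and 8.39 for Nr4a-TKO in naive T cells, and 11.34 and 11.82 at 3 h, and *Nr4a2* was also higher at 3 h on the array labelled Nr4a-TKO, by 1.38 on the log2 scale. Of the 3 *Nr4a3* probes, 2 were lower there, by log2 differences of -1.86 and -1.47. The genotypes are therefore named by the labels of the arrays, and each direction between them rests on those labels.

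The promoters of the 8 genes, from RefSeq on GRCm38.p6 and matched by symbol, were compared because the genes moved together. Windows from 250 bases before to 50 bases after a start were searched on both strands for 3 motifs. TGATGNAA is the core of the element that ATF4 binds with C/EBP proteins, CACGTG is the E-box bound by Myc and Max, and GGGCGG is the GC box bound by Sp1-type factors, which was added after the other motifs gave no match. Of all 32851 promoters, 3.97% held TGATGNAA, 7.15% held CACGTG and 35.7% held GGGCGG. None of the 9 windows of the 8 genes (*Psat1* has a pair of annotated starts) held TGATGNAA or CACGTG, and 5 of them, of 5 genes, held GGGCGG. That the letters are absent says nothing about binding elsewhere. The 250 bases before the start are shown for the serine hydroxymethyltransferases, which do the same reaction in different compartments, and for *Psat1* and *Mthfd2*, which stand for the serine arm and the mitochondrial arm. Capitals mark GGGCGG or its complement.
Shmt1, chr11:60811266-60811515, minus strand: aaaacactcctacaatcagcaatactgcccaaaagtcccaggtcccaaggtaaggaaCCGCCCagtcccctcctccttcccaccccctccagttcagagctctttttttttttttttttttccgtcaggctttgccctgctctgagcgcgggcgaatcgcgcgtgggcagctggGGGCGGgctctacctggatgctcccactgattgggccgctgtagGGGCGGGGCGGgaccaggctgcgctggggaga
Shmt2, chr10:127522445-127522694, minus strand: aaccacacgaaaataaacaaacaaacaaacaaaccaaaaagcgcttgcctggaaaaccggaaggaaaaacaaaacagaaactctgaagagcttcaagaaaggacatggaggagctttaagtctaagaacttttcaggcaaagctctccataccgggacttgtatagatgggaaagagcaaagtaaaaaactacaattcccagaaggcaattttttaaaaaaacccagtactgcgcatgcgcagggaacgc
Psat1, chr19:15924623-15924872, minus strand: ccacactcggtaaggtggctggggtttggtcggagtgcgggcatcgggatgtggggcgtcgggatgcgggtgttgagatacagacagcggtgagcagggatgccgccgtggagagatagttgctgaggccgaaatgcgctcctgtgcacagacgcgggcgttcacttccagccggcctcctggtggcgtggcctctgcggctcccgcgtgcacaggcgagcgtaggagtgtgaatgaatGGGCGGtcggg
Mthfd2, chr6:83317605-83317854, minus strand: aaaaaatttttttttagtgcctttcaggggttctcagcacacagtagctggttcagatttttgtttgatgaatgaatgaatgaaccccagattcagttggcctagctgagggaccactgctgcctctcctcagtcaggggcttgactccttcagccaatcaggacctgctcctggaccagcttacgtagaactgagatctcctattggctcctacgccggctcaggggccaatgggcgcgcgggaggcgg
The *Shmt1* sequence has 4 matches, while that of *Shmt2* has none and a GC content of 40.8%. The *Psat1* window is that of the start with matches and has a GC content of 65.6%, and the *Mthfd2* sequence has no match and 52.4%. Both kinds of promoter thus occur among genes that rose at 3 h.

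After 3 h of culture, transcripts of the 8 enzymes were higher on the arrays of both genotypes. By their brightest probes, 8 of 8 genes were more than 2-fold higher at 3 h than in naive T cells on the WT arrays, where 8.43% of all 23224 genes measured were, and 8 of 8 on the Nr4a-TKO arrays, where 7.82% of 23713 genes were. None of the 8 was more than 2-fold lower, against 8.57% and 8.0% of all genes. The median log2 change of the 8 was 2.08 for WT, with a range from 1.29 to 3.36, and 2.02 for Nr4a-TKO, with a range from 1.07 to 2.74. Over all genes these medians were -0.05 and -0.02. Quantile normalization gave the 4 arrays a common distribution, so all-gene medians near 0 are largely set by it, here and between the genotypes. By these probes *Shmt2* and *Psat1* changed most among the 8 in both genotypes. Over the 15 probes, 13 were more than 2-fold higher for WT and 14 for Nr4a-TKO. The plot of the 4 arrays for each gene shows the open symbols of naive T cells below the filled symbols of iTreg cells throughout.

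**Figure D1:**
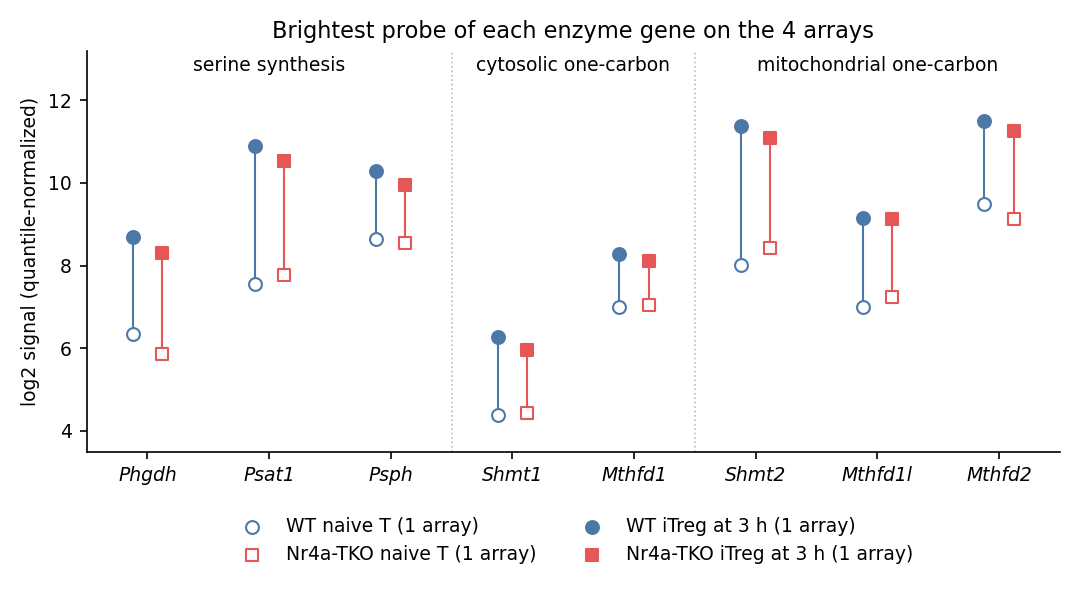
Log2 signal (vertical axis, quantile-normalized) of the brightest probe of each gene on the 4 arrays. Circles are WT and squares Nr4a-TKO, open symbols are naive T and filled symbols iTreg at 3 h, and each symbol is 1 array without error. The lines join the stages of a genotype. Each filled symbol lies above its open one, by 1.07 to 3.36, and filled squares lie at or under filled circles.

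Serine synthesis comes first. *Phgdh*, which encodes the enzyme that commits 3-phosphoglycerate to serine, had 1 probe (mm9 chr3:98117098-98117157). Its log2 signals were 6.34 for WT and 5.86 for Nr4a-TKO in naive T cells, and 8.70 and 8.30 at 3 h. Both iTreg arrays were far above both naive arrays, and at each stage the Nr4a-TKO array was the lower one. The change was 5.13-fold (log2 2.36) for WT and 5.42-fold (log2 2.44) for Nr4a-TKO, and the difference between these changes, 0.08, was under the spot SD.

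*Psat1* encodes the aminotransferase that uses glutamate to make phosphoserine. Its brightest probe (mm9 chr19:15991586-15991645) gave 7.55 for WT and 7.78 for Nr4a-TKO in naive T cells, and 10.90 and 10.52 at 3 h. It was low in naive cells of both genotypes and high at 3 h, with the WT array uppermost. This was a 10.2-fold rise for WT, which 42 of all genes exceeded, and a 6.70-fold rise for Nr4a-TKO, which 90 genes exceeded. A second probe (chr19:15979622-15979681) gave log2 signals of 5.64, 5.70, 9.29 and 9.01 in the same order of arrays and rose 12.5-fold for WT and 9.89-fold for Nr4a-TKO. The third (chr19:15995015-15995074), designed on another transcript model, did not follow. Its signals of 5.87, 4.26, 6.62 and 6.21 put the Nr4a-TKO naive array below the other three. By that probe the WT change was 0.76 on the log2 scale, and the Nr4a-TKO rise was 3.88-fold.

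*Psph*, whose product removes the phosphate to release serine, had 1 probe (mm9 chr5:130271441-130271500). Its log2 signals were 8.64 for WT and 8.54 for Nr4a-TKO in naive T cells, and 10.30 and 9.94 at 3 h. The naive arrays lay closer together than the spot SD, and the iTreg arrays lay above them. The rise was 3.15-fold for WT and 2.65-fold for Nr4a-TKO, smaller than that of the other serine synthesis genes.

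Of the cytosolic enzymes, *Shmt1* makes glycine and methylene folate from serine and was measured near background in naive cells. Its brighter probe (mm9 chr11:60620453-60620512) gave 4.39 for WT and 4.43 for Nr4a-TKO in naive T cells, and 6.28 and 5.96 at 3 h. Naive signals were not far over the lowest detectable log2 signals of 3.45 and 3.37, and those at 3 h were clearly over them. The rise was 3.69-fold for WT and 2.88-fold for Nr4a-TKO. With an offset of 50 added to the intensities its log2 changes were 0.84 and 0.65, which are under 2-fold. The other probe (chr11:60603099-60603158) was not well above background in naive T cells of either genotype and measured 4.53 and 4.47 at 3 h, so it rose at least 2.12-fold for WT and at least 2.15-fold for Nr4a-TKO.

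*Mthfd1* encodes a trifunctional enzyme that interconverts formate, formyl, methenyl and methylene groups on folate in the cytosol. Its brightest probe (mm9 chr12:77391995-77392054) gave 7.00 for WT and 7.04 for Nr4a-TKO in naive T cells, and 8.28 and 8.10 at 3 h. The genotypes were within the spot SD of each other in naive cells. The rise was 2.44-fold for WT and 2.09-fold for Nr4a-TKO. The other probe (chr12:77420671-77420730) measured 6.47, 6.55, 8.79 and 8.59 and showed larger rises, 4.99-fold and 4.12-fold. The size of the *Mthfd1* response thus depended on the probe by more than 1.5 times, although both probes rose in both genotypes.

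Mitochondrial enzymes followed the same pattern. *Shmt2*, which supplies most mitochondrial one-carbon units from serine, was measured by its brighter probe (mm9 chr10:126954811-126954870) at 8.01 for WT and 8.42 for Nr4a-TKO in naive T cells, and 11.38 and 11.08 at 3 h. Nr4a-TKO was the higher genotype in naive cells and the lower one at 3 h. The rise was 10.3-fold for WT, which 40 of all genes exceeded, and 6.34-fold for Nr4a-TKO, which 100 genes exceeded. The other probe (chr10:126959393-126959452) measured 5.52, 5.42, 8.60 and 7.98 and rose 8.45-fold and 5.89-fold. On that probe the naive arrays differed by 0.10 in the other direction, so the naive order of the genotypes was not shared by the probes of *Shmt2*.

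*Mthfd2* encodes the mitochondrial methylene-tetrahydrofolate dehydrogenase and cyclohydrolase, an enzyme known to be scarce in most resting adult tissue. Its brighter probe (mm9 chr6:83256518-83256577) gave 9.48 for WT and 9.14 for Nr4a-TKO in naive T cells, and 11.49 and 11.26 at 3 h. The Nr4a-TKO array was lower at each stage, and the stages did not overlap. The rise was 4.02-fold for WT and 4.34-fold for Nr4a-TKO. The other probe (chr6:83255861-83255920), 716 bases away at its outer edge, gave 7.40, 6.98, 9.36 and 8.98 and rises of 3.87-fold and 3.99-fold. The pair of *Mthfd2* probes differed by less than the spot SD in each of these changes.

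*Mthfd1l* encodes the mitochondrial synthetase that releases formate, and its probes gave opposite results. The brighter one (mm9 chr10:6198416-6198475) measured 7.01 for WT and 7.23 for Nr4a-TKO in naive T cells, and 9.16 and 9.14 at 3 h. It rose 4.44-fold for WT and 3.78-fold for Nr4a-TKO, with hardly any distance between the genotypes at 3 h. The other probe (chr10:6373947-6374006) measured 4.91, 9.09, 5.29 and 5.18, so 1 array, Nr4a-TKO naive T, stood far above the other three. By this probe the gene changed by 0.38 for WT and fell by 3.91 for Nr4a-TKO on the log2 scale. The probes span 175590 bases on mm9, and the first 30 bases of each are given here because the reading of *Mthfd1l* depends on which probe is taken.
Mthfd1l, rising probe: acagaaacggagcaagttaaaggcttgttc
Mthfd1l, discordant probe: ctggttagaaatcatacgaatggcgttcca
The spot of the discordant probe had a mean intensity of 494 on the Nr4a-TKO naive T array, with a median over its pixels of 415 and a pixel SD of 237. On the other arrays its mean intensity was 47.2, 57.9 and 55.4, and its pixel SD lay between 11.6 and 15.6. It carried no outlier or saturation flag, and it was printed once per array. Taking the mean of both probes would turn the Nr4a-TKO change of *Mthfd1l* to -1.0. The 4 arrays hold no second spot that could tell which reading is right.

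**Figure D2:**
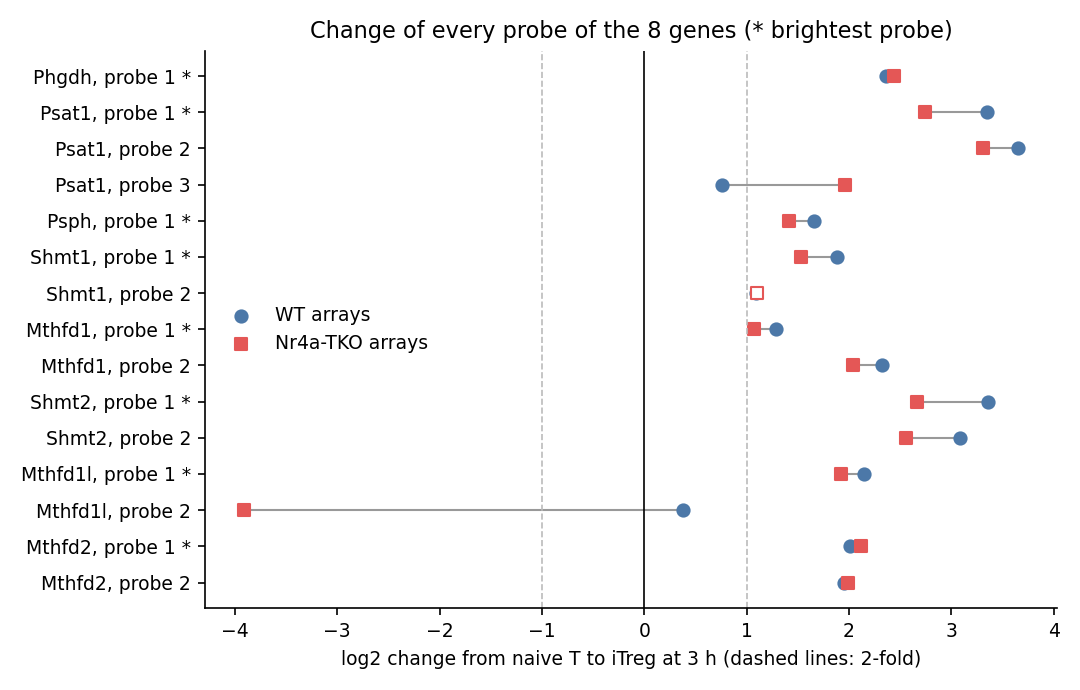
Log2 change over the 3 h of culture (horizontal axis) for each of the 15 probes, with circles for WT and squares for Nr4a-TKO, 1 value each. Asterisks mark the probe that stands for the gene, open symbols lower bounds, and dashed lines 2-fold. All but 2 rows lie right of the 2-fold line in both genotypes. The third Psat1 probe falls short of it for WT, and the discordant Mthfd1l probe falls to -3.91 for Nr4a-TKO.

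**Figure D3:**
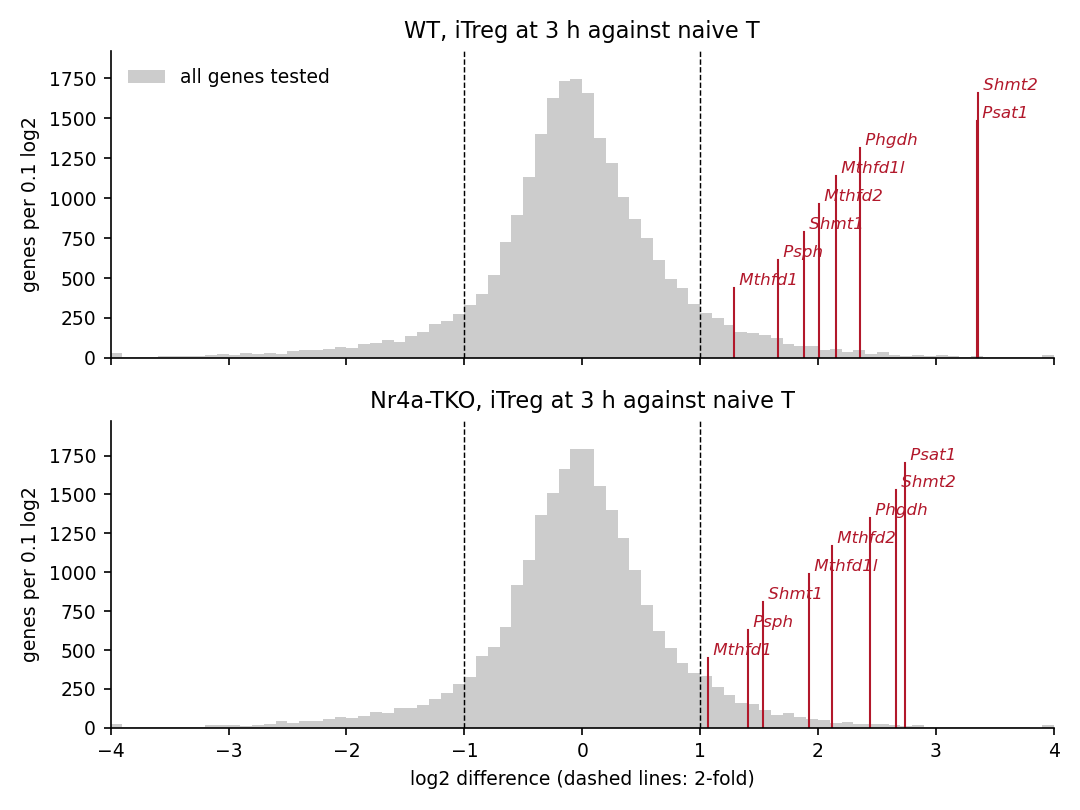
Distribution of the log2 change over the 3 h of culture over all genes measured (grey, genes per bin of 0.1), for WT above and Nr4a-TKO below. Values beyond the axis are in the outermost bins. Red lines mark the 8 enzyme genes, whose height has no meaning, and dashed lines 2-fold. The 8 lines lie beyond 2-fold on the right in both panels.

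Between the genotypes, none of the 8 genes was more than 2-fold apart by its brightest probe. In naive T cells 0 of 8 passed 2-fold, where 3.6% of 23112 genes did, and in iTreg cells at 3 h 0 of 8, where 3.67% of 23498 did. Over the 14 probes measured in naive T, 1 was more than 2-fold higher for Nr4a-TKO, the discordant *Mthfd1l* probe (4.19). Another 1 was more than 2-fold lower, the third *Psat1* probe (-1.61). At 3 h 0 of 15 probes passed 2-fold. By the brightest probes, the Nr4a-TKO minus WT difference in naive cells ranged from -0.49 for *Phgdh* to 0.40 for *Shmt2*, with a median of 0.04. It was below 0 for 3 of 8 genes, against 52.8% of all genes. *Phgdh* (-0.49) and *Shmt2* (0.40) were the genes of the set beyond 2 spot SDs (0.34), and they lay on opposite sides.

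At 3 h the 8 genes leaned to one side. The array labelled Nr4a-TKO was lower for 8 of 8 genes, against 49.6% of all genes, and for 15 of 15 probes, which include the several probes of 6 genes and are not independent. The sizes were small. The differences were -0.41 for *Phgdh*, -0.38 for *Psat1* and -0.35 for *Psph* in serine synthesis. In the cytosolic pair they were -0.32 for *Shmt1* and -0.18 for *Mthfd1*. In mitochondria they were -0.30 for *Shmt2*, -0.23 for *Mthfd2* and -0.02 for *Mthfd1l*. The median was -0.31, where the median of all genes was 0.00, and 7 of 8 lay below -0.17, the spot SD, against 24.3% of all genes. In naive T 5 of 8 were beyond the spot SD, on either side of 0. Beyond 2 spot SDs (0.34) were 3 of 8 at 3 h, those of serine synthesis, and 2 of 8 in naive T. *Shmt1* was dim, at 5.96 on the Nr4a-TKO array, and its other probe gave -0.06. *Mthfd1l* was within the spot SD of 0 and was level after scaling to the 75th percentile (0.00). With 1 array for each genotype, these differences include whatever set the samples apart.

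Other values at 3 h are set beside this lean, and not all of them share its direction. Among the 1958 genes more than 2-fold higher at 3 h for WT, the median difference between genotypes at 3 h was -0.14 and 71.6% were below 0. Among the 1854 more than 2-fold higher for Nr4a-TKO, the median was 0.02 and 47.2% were below 0. Either selection shares an array with the difference, so neither is independent of it. At 3 h the summed linear signal of the 5 T cell markers, *Ptprc* included, was 20100 on the WT array and 17000 on the Nr4a-TKO array. It was 22300 and 21900 in naive T cells. *Ptprc* was the brightest of them at 3 h (log2 13.45 and 13.24) and weighed most in that sum. By gene, the log2 differences at 3 h were -0.35 for *Cd3e*, -0.48 for *Cd4*, -0.21 for *Ptprc*, -0.02 for *Cd3g* and 0.16 for *Lck*. For 3 B cell markers (*Cd79a*, *Cd79b*, *Ms4a1*), by their brightest probes well above background on each array, the summed signal was 288 and 420 at 3 h. In naive T cells it was 556 and 616, with log2 differences of 0.70 for *Cd79a*, -0.56 for *Cd79b* and 0.10 for *Ms4a1*. The other *Ms4a1* probe was not well above background on any array. The 4 activation markers (*Cd69*, *Il2ra*, *Egr2*, *Tnfrsf9*) summed to 15200 and 17200 at 3 h. *Cd69* and *Egr2* weighed most in that sum. Their log2 differences were 0.41 for *Cd69* and 0.17 for *Egr2*, against 0.05 for *Il2ra* and -3.60 for *Tnfrsf9*. Those of *Egr2* and *Il2ra* were not beyond the spot SD. The part of these values in the lean of the enzyme genes was not tested.

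**Figure D4:**
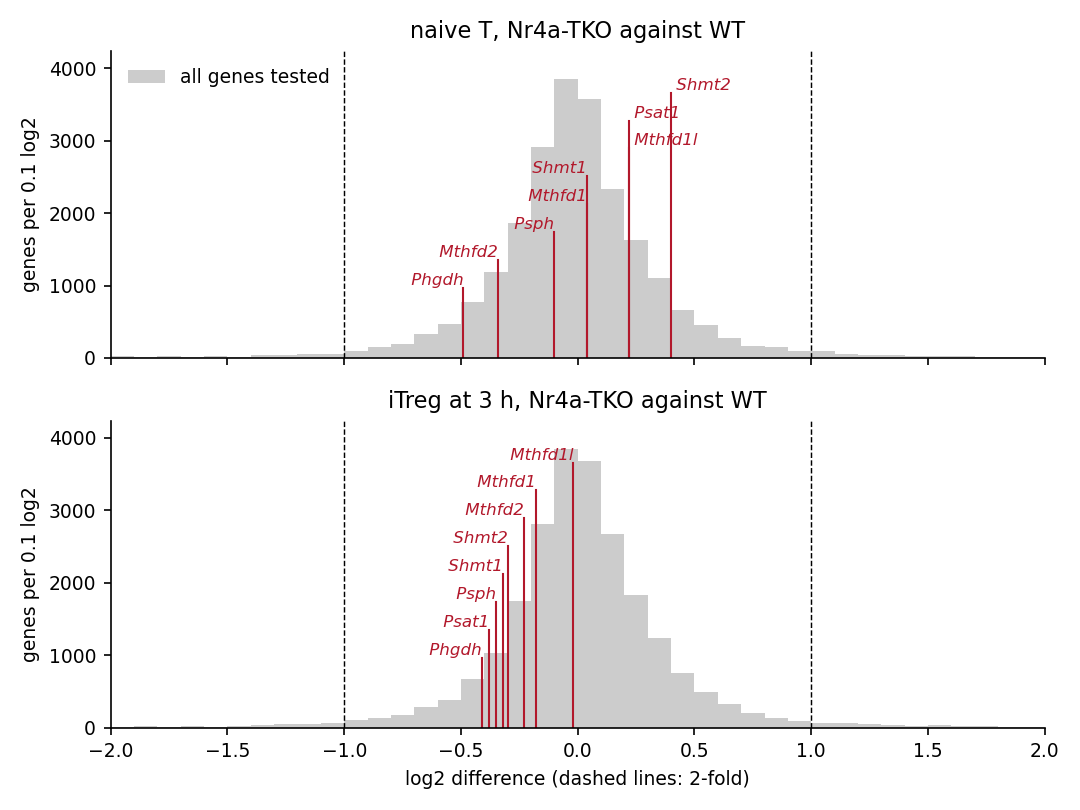
Distribution of the log2 difference between Nr4a-TKO and WT over all genes measured (grey, genes per bin of 0.1), for naive T above and iTreg at 3 h below, shown from -2 to 2. Red lines mark the 8 enzyme genes, whose height has no meaning, and dashed lines 2-fold. In naive T the lines fall on both sides of 0, and at 3 h all fall at or left of it, from -0.41 to -0.02.

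The change over the 3 h was smaller for Nr4a-TKO in 6 of 8 genes, against 48.1% of all genes, with a median difference between the changes of -0.24. The span ran from -0.70 for *Shmt2* and -0.60 for *Psat1* to 0.11 for *Mthfd2* and 0.08 for *Phgdh*. In size 4 of the 8 exceeded the spot SD of such a difference (0.24), and those of *Shmt2* and *Psat1* exceeded 2 spot SDs (0.48). For *Psat1* the other probes gave -0.34 and 1.20, so its sign was not shared by the third probe, while both probes of *Shmt2* were below 0 (-0.70 and -0.52). The other probes gave -0.27 for *Mthfd1*, 0.04 for *Mthfd2*, -4.29 for *Mthfd1l* (the discordant probe) and 0.02 for *Shmt1*. That of *Shmt1* was not well above background in naive T. *Mthfd2* and *Phgdh* kept the same distance between genotypes at both stages within the spot SD.

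Of the regulators known for these genes, *Myc*, which drives growth metabolism in activated T cells, rose most. Its log2 signals were 10.16 for WT and 10.02 for Nr4a-TKO in naive T cells, and 12.51 and 11.85 at 3 h. This was a 5.09-fold rise for WT and a 3.54-fold rise for Nr4a-TKO, and at 3 h the Nr4a-TKO array was lower by a log2 difference of -0.66. The other *Myc* probe gave -0.51 there. *Atf4*, the amino acid stress factor known to switch on serine synthesis genes, had log2 signals of 12.52, 12.22, 13.23 and 13.22, with changes of 0.71 for WT and 1.00 for Nr4a-TKO and no distance between the genotypes at 3 h (-0.01). *Nfe2l2* (Nrf2, the oxidative stress factor) changed by -0.69 and -0.40. The transcript of *Atf4* says little of its protein, which is known to be set largely by translation.

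The wider network was read from lists of 38 genes of folate, methionine, glycine and serine metabolism. Of 35 measured for WT, 11 were more than 2-fold higher at 3 h and 2 more than 2-fold lower, against 8.43% and 8.57% of all genes. Of 36 measured for Nr4a-TKO, 10 were higher and 3 lower, against 7.82% and 8.0%. The median changes were 0.40 and 0.28, so by their medians these lists moved much less than the 8 enzymes. The lists include dim genes such as *Folr2* and *Ftcd*, each well above background on 2 of the 4 arrays. Between the genotypes 2 of 33 were more than 2-fold apart in naive T and 0 of 36 at 3 h, against 3.6% and 3.67% of all genes.

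In folate uptake and retention, *Slc19a1*, the reduced folate carrier, rose 7.79-fold for WT and 5.87-fold for Nr4a-TKO, from log2 signals of 6.13 and 6.31 to 9.09 and 8.86. *Slc25a32*, the mitochondrial folate carrier, rose 2.64-fold and 2.51-fold by its brightest probe, but its other probe changed by 0.00 for WT and 0.37 for Nr4a-TKO. *Fpgs*, which adds the glutamate tail that holds folate in cells, rose 2.41-fold and 2.17-fold. A second *Fpgs* probe rose 2.61-fold and 2.96-fold, and the dimmest one changed by -0.79 and 0.27. *Folr2*, a folate receptor, was not well above background in naive T cells and rose at least 2.02-fold for WT. On the Nr4a-TKO array at 3 h it measured 3.68, level with the 3.67 of naive T.

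Other folate enzymes did not pass 2-fold upward by their brightest probes. *Mthfd2l*, the paralogue of *Mthfd2*, was well above background by its brightest probe on 1 of the 4 arrays, Nr4a-TKO iTreg at 3 h, at 3.82. *Aldh1l1*, the cytosolic enzyme that oxidizes formyl folate, gave log2 signals of 6.26 for WT and 3.99 for Nr4a-TKO in naive T cells, and 4.42 and 4.49 at 3 h, with the WT naive array above the other three. *Aldh1l2*, its mitochondrial counterpart, gave 5.34, 6.39, 5.24 and 5.0, with the Nr4a-TKO naive array uppermost. For both, a second probe showed much smaller distances in naive T, -0.56 in place of -2.27 for *Aldh1l1* and -0.27 in place of 1.06 for *Aldh1l2*. By their brightest probes, none of the genes measured in this list of other folate enzymes (6 for WT and 7 for Nr4a-TKO, *Tyms* included) was more than 2-fold higher at 3 h. Of all genes 8.43% and 7.82% were, so for so few genes this is near the share of all genes. A second probe of *Mthfs*, which returns formyl folate to the active pool, rose 2.54-fold and 2.53-fold, where the brightest changed by 0.41 and 0.85.

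In glycine cleavage, which also feeds mitochondrial folate, *Gcsh*, the lipoyl carrier protein, rose 5.24-fold and 5.83-fold, while *Amt*, the aminomethyltransferase that hands the carbon to folate, fell 2.18-fold and 3.56-fold by its brighter probe. The dimmer *Amt* probe was not well above background at 3 h in either genotype. *Gcsh* at 3 h was at 10.48 for WT and 10.17 for Nr4a-TKO. In the methionine cycle 3 of 7 genes rose more than 2-fold in each genotype, against 8.43% (WT) and 7.82% (Nr4a-TKO) of all genes. They were *Mtrr* (4.35-fold and 3.99-fold), which reactivates methionine synthase, *Mat2a* (3.09-fold and 2.97-fold, though its dimmest probe changed by -0.51 and -0.34), which makes S-adenosylmethionine, and *Ahcy* (2.21-fold and 2.07-fold), which clears S-adenosylhomocysteine. Of the transsulfuration genes, *Cth* was not well above background on any array and *Cbs* stayed within 2-fold.

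Among genes of serine transport and use, *Slc1a5*, a neutral amino acid carrier, rose 5.19-fold for WT and 3.94-fold for Nr4a-TKO. *Sfxn1*, the mitochondrial serine carrier, rose 2.47-fold for WT and changed by 0.83 for Nr4a-TKO by its brightest probe, and rose 2.24-fold and 2.78-fold by its other one, so the order of the genotypes was not shared by the probes. Its relative *Sfxn3* changed by -0.82 for WT and fell 2.17-fold for Nr4a-TKO. *Srr*, serine racemase, changed by 0.99 for WT and rose 2.60-fold for Nr4a-TKO by the brightest of its 5 probes, while another rose 3.27-fold and 2.34-fold, so here too the order depended on the probe. *Gart*, a purine synthesis enzyme that consumes formyl folate, rose 3.10-fold and 2.79-fold, and *Atic*, the next such consumer, changed by -0.08 and -0.01 by its brightest probe and by 0.67 and 0.51 by the other probe well above background on each array.

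**Figure D5:**
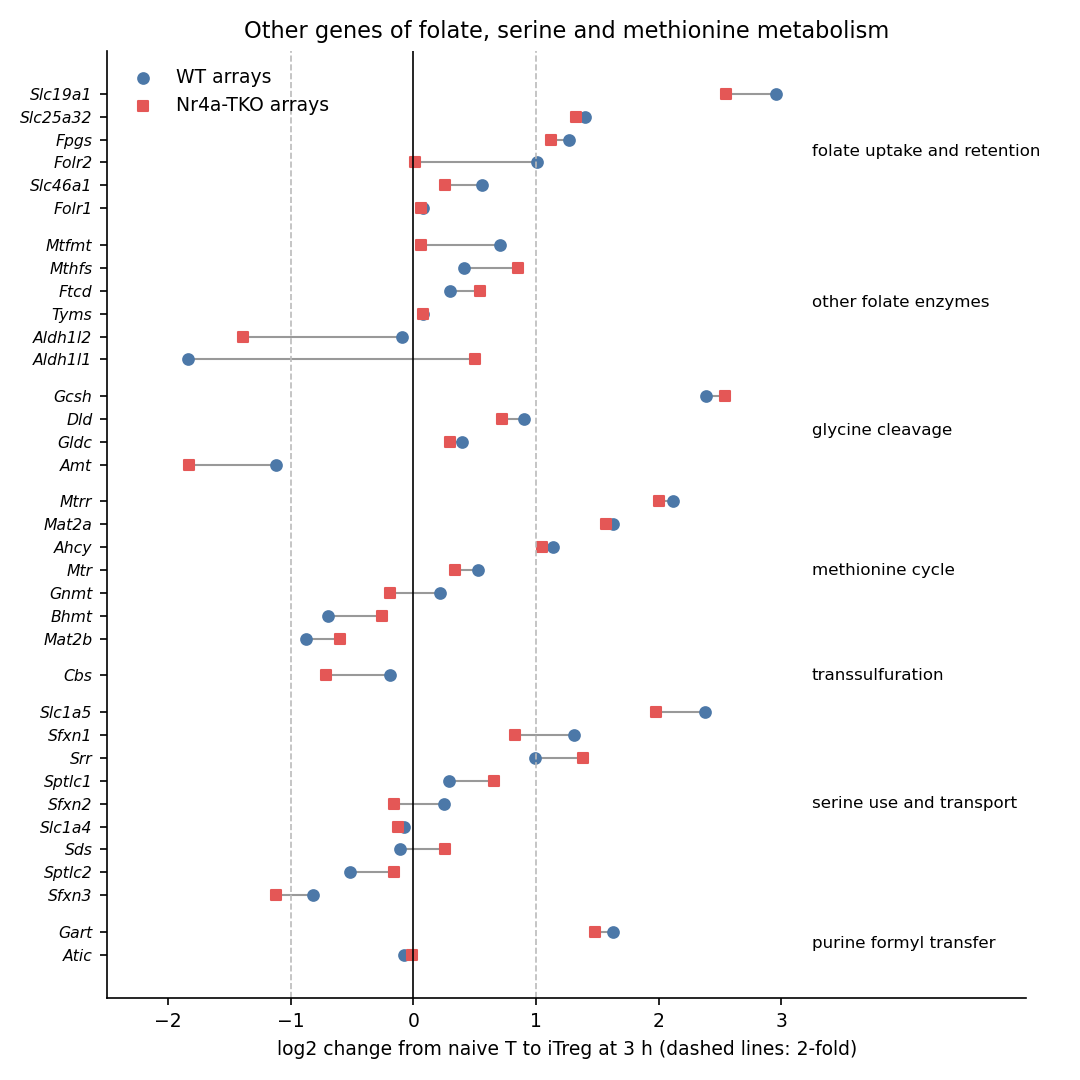
Log2 change over the 3 h of culture (horizontal axis) of the other genes with both changes measured, in their lists, with circles for WT and squares for Nr4a-TKO, 1 value each. Dashed lines mark 2-fold. Slc19a1, Gcsh, Slc1a5 and Mtrr lie far to the right, Amt to the left, and Aldh1l1 on opposite sides for the genotypes (-1.84 and 0.50).

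The genes whose pattern over the 4 arrays was most like that of *Mthfd2* were found by the distance between log2 signals centred per gene, among 19799 genes well above background on each array. They were *Trmt61a*, *Cars*, *Pwp2*, *Snhg16* and *Ndufaf4*, at distances of 0.07 to 0.11 on the log2 scale. Nearest was *Trmt61a*, a subunit of a tRNA methyltransferase, with signals of 9.15, 8.74, 11.14 and 10.84. *Cars*, cysteinyl-tRNA synthetase, followed with 7.31, 7.03, 9.35 and 9.19. Of the other 7 enzymes, *Phgdh* was number 120 in this order at a distance of 0.37, and *Shmt2*, the farthest, number 1249 at 1.09. With only 4 arrays many genes share such a pattern, and the distances are a description.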

How the data were processed

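The authors deposited the scanner output of 4 Agilent arrays (Feature Extraction 11.5.1.1, probe coordinates on mm9), with the intensity of each spot, its local background and flags, and a table of log2 values. Their methods name RMA in GeneSpring, but the deposited log2 values are the processed intensity after log2 with each array's 75th percentile taken off. From the mean intensities, normexp background correction (offset 0), quantile normalization, log2 and the mean over spots were applied (R 4.3.3, limma 3.58.1). Control spots and outlier spots (115 to 160 per array) were left out. Python 3.11.15, pandas 2.3.3, numpy 2.4.6 and matplotlib 3.10.9 did the rest. The arrays were on 1 slide and read in 1 scan, and between 64.91% and 67.59% of probes were well above background.

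Dim probes, those not well above background, took at least the array's lowest detected value (3.45, 3.37, 3.43 and 3.07), and a difference was taken where at least 1 of the arrays compared was well above it. The threshold was 2-fold. Genes were named by symbol, transcript or synonym from RefSeq (GRCm38.p6, names only) or kept the name in the files, and 4831 probes had none. This left 32498 genes with values. Counting past 2-fold was tested on simulated data. The named genes were every probe of the 8 genes, the genes of the wider lists past 2-fold in any comparison, *Mthfd2l*, *Aldh1l1*, *Aldh1l2*, the regulators, the targeted genes and the 5 genes nearest *Mthfd2*. The 8 genes and the lists were chosen with earlier results of these data known. Alternatives were other background corrections and scalings, the deposited values, the mean of a gene's probes, other filters and thresholds of 1.5-fold and 3-fold. A few genes of the lists are not reported here, and the counts, medians and sums over the lists leave them out. Arrays of iTreg cells at 24 h were not used here.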

Additional observations from a re-analysis of the deposited data

Results flagged for a closer look

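A probe of *Mthfd1l* (mm9 chr10:6373947-6374006) moved opposite ways in the genotypes, with a log2 change of 0.38 for WT and -3.91 for Nr4a-TKO. The gene's brighter probe changed by 2.15 and 1.92. The same held for *Aldh1l1*, with log2 changes of -1.84 for WT and 0.50 for Nr4a-TKO, while its other probe changed by -0.59 and -0.05. In both genes the opposite directions rest on 1 high signal in naive T cells, of Nr4a-TKO for *Mthfd1l* (9.09) and of WT for *Aldh1l1* (6.26). With 1 array per group these differences between the genotypes were not tested.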

How the results depend on the processing

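With 1 array per group there was no replicate to leave out, and the arrays' number limits every value. No paired analysis was possible because each group holds 1 sample. Under the 7 other ways of computing the values, the 8 genes stayed above 0 for WT, and 7 or 8 of them stayed more than 2-fold higher in each genotype. The exception in direction was *Mthfd1l* for Nr4a-TKO, which changed to -1.0 with the mean over probes. The brightest probe was picked anew in each setting that used it. For *Mthfd1* this was the other probe with the offset of 50 (1.83 for WT and 1.60 for Nr4a-TKO). The same probe stood for it without background correction (2.07 and 1.81). The counts and medians of those settings therefore do not cover the *Mthfd1* probe of the main values. At 3 h the 8 genes remained below 0 except *Mthfd1l*, which was level (0.00) with the 75th percentile scaling and the deposited values, where 7 of 8 were below. Of the summary values below, the cause was not tested.

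The median change of the 8 for Nr4a-TKO moved to 2.20 with the 75th percentile scaling, 2.22 with the deposited values, 1.81 with the mean over probes and 1.69 with an offset of 50. For WT it moved to 1.89 with the mean over probes and 1.83 with the offset. The mean over probes also put 1 of the 8, *Mthfd1l*, more than 2-fold apart in naive T. At 3-fold, 5 of the 8 were higher for Nr4a-TKO.

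In the wider lists, the offset left 7 genes higher and 0 lower for WT, 6 and 0 for Nr4a-TKO, 0 apart in naive T and medians of 0.21 for WT and 0.10 for Nr4a-TKO. Without background correction, and likewise with the mean over probes, 1 was lower for WT and 1 apart in naive T. The 75th percentile scaling and the deposited values each put 1 apart at 3 h. At 1.5-fold, 5 were lower in each genotype and 2 apart at 3 h. At 3-fold, 6 were higher and 1 lower for WT, 4 and 1 for Nr4a-TKO, and 1 apart in naive T.

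Over all genes, the offset gave 962 higher and 936 lower for WT, 852 and 819 for Nr4a-TKO, 189 apart in naive T and 177 at 3 h. No background correction gave 1326 lower for WT, 1227 higher and 1200 lower for Nr4a-TKO, 356 apart in naive T and 352 at 3 h. The deposited values put 1253 apart in naive T. The strict filter left 353 apart in naive T and 365 at 3 h, and no filter gave 1774 and 1778. At 1.5-fold there were 3921 higher and 4076 lower for WT, 3875 and 3963 for Nr4a-TKO, 2412 apart in naive T and 2451 at 3 h. At 3-fold there were 770 and 885, 635 and 820, 338 and 341.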

Other observations

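Where a gene had several probes well above background on each array, the probe nearest the 5′ end on mm9 had the lower signed log2 change in 4 of 5 genes in each genotype, an order noticed after the values were seen. The same order was not counted over all genes with several probes, so it cannot be read as particular to these genes. For *Mthfd1l* the 5′ probe is the discordant one, whose fall in Nr4a-TKO was larger in size than the rise of its partner. For *Psat1* it is the third probe, designed on another transcript model. The *Shmt2* pair differed by less than the spot SD for Nr4a-TKO. For WT the 5′ and 3′ probes changed by 0.76 and 3.65 for *Psat1*, by 1.29 and 2.32 for *Mthfd1*, by 0.38 and 2.15 for *Mthfd1l* and by 3.08 and 3.36 for *Shmt2*. *Mthfd2* was the exception, with 2.01 and 1.95. For Nr4a-TKO the pairs were 1.96 and 3.31 for *Psat1*, 1.07 and 2.04 for *Mthfd1*, -3.91 and 1.92 for *Mthfd1l*, 2.56 and 2.66 for *Shmt2*, and 2.12 and 1.99 for *Mthfd2*.

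*Foxp3*, the gene of the regulatory lineage, was lower on the arrays labelled Nr4a-TKO at both stages, with log2 signals of 7.41 and 6.10 in naive T and 7.53 and 6.17 at 3 h (WT first). The part in this of the *Foxp3* knock-in named for the Nr4a-TKO marrow was not tested. Of the cell cycle genes, *Pcna* rose at 3 h for WT and Nr4a-TKO, by 1.07 and 1.05, while *Mki67* fell by 1.11 for WT and changed by -0.54 for Nr4a-TKO. By their brightest probes *Top2a* changed by -0.15 and -0.32, *Ccnb1* by 0.36 and 0.73, and *Mcm2* by 0.48 and 0.23. *Cdk1* was not well above background on any array.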
